A study of Mus musculus with 12 samples.

Results

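Transcripts of 10 genes of the circadian clock were followed through whole lungs of mice and through extracellular vesicles (membrane-bound particles shed by cells) collected from cultures of lung mesenchyme. The genes were taken by name: Arntl, Clock, Npas2, Per1, Per2, Per3, Dbp, Tef, Nr1d1 and Nr1d2. All 10 were among the 21950 genes of the whole-lung table, and 5 of them (Clock, Per3, Dbp, Nr1d1 and Nr1d2) were among the 8096 genes of the vesicle table. Arntl, Npas2, Per1, Per2 and Tef were not listed there. Every gene of the vesicle table averaged over 2 RPKM in one group or the other, and no level is read from a gene not being listed.

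Each source held 2 libraries labelled ColcreER; Tbx4flox/flox and 4 labelled wild type, from adult C57BL/6 mice, 12 libraries in all. ColcreER is a Cre recombinase that tamoxifen switches on, here with a Col driver, and Tbx4 encodes a T-box factor of the lung's mesenchyme. The design text of the series instead names Tbx4creER with floxed Ghr, the growth hormone receptor, so the libraries are called mutant-labelled here and differences are mutant-labelled minus wild type. The driver limits deletion to the cells in which it is active, while whole lung holds all cell types. Vesicles came from medium conditioned by cells for 48 hours, as the labels put it. Neither tamoxifen treatment nor the time of day at which lungs were removed is given in the sources used here, and the labels do not say which libraries share an animal, so p-values measure the spread between these libraries.

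The clock of mammalian cells is a feedback loop. CLOCK or its paralogue NPAS2 pairs with ARNTL (also called BMAL1) and drives genes that carry E-box sequences, among them the Per and Cry genes, whose proteins inhibit that pair, the Nr1d genes, and the activators Dbp and Tef. The proteins NR1D1 and NR1D2 (REV-ERB alpha and beta) repress Arntl and Npas2 through RORE sequences, while DBP and TEF bind D-box sequences, and for this reason Arntl and Npas2 transcripts are known to run in antiphase to Dbp, Tef and the Nr1d genes over the day in mouse organs, lung among them.

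The promoters of Arntl, Per1, Per3 and Tef are shown because they hold these 3 kinds of sequence. Windows from 250 bases before to 50 bases after an annotated start were taken from RefSeq on build GRCm38.p6, with 14 windows for 9 of the 10 genes and none for Per2. Capitals mark a match to CACGTG (E-box), TTANGTAA (D-box) or the RORE motif (matched here as AAGTAGGTCA), searched on both strands, with no overlap between matches.
Arntl, chr7:113207261-113207560, plus strand: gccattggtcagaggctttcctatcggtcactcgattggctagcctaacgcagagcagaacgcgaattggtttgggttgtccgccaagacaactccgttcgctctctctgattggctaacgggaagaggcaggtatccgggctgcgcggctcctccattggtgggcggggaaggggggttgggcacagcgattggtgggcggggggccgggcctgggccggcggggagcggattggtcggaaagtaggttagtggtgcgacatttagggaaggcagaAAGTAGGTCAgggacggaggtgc
Per1, chr11:69098699-69098998, plus strand: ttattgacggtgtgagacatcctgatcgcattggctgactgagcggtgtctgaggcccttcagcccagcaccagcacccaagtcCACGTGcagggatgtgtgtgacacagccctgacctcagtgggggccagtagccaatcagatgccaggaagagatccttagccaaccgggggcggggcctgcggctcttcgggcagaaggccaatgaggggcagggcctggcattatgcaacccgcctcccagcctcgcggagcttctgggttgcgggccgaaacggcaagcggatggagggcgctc
Per3, chr4:151044616-151044915, minus strand: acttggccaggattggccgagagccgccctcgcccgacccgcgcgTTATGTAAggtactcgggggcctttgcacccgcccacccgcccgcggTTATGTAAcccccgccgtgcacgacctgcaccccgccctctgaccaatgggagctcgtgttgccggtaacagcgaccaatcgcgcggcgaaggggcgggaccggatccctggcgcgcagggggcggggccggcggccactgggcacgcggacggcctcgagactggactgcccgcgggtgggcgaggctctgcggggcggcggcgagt
Tef, chr15:81811164-81811463, plus strand: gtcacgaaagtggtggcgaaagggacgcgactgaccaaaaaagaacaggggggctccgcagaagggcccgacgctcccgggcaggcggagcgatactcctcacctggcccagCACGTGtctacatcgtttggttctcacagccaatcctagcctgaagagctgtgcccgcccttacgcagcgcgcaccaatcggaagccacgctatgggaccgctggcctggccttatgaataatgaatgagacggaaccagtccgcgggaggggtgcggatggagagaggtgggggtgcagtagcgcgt
The RORE match of Arntl lay 27 bases after the start, and 0.219% of all 32851 windows held such a match. E-box matches stood 166 bases before a start of Per1 and 138 bases before the start of Tef shown, and a second Tef window, at chr15:81802423-81802722, held another 127 bases before its start, where 7.15% of all windows held a match. The D-box matches of Per3 stood 205 and 158 bases before its start, against 2.32% of all windows. The other windows of these genes, those of Clock, Npas2, Dbp, Nr1d1 and Nr1d2 included, held no match. A match describes letters and is not a measured site, and no match says only that the letters are absent from the window.

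Depth, as worked out from the deposited values, was 42.7 to 44.8 M reads (M, megareads) in genes for a lung, 1.75 and 1.68 M for the mutant-labelled vesicle libraries and 4.20 to 5.41 M for the wild-type ones. All 6 lung markers (such as Sftpc, Ager and Pecam1) were read in every lung, and in vesicles 7 of 7 mesenchymal markers were listed beside 6 of 6 macrophage markers. The mesenchymal markers summed to 68.8 and 417 RPKM in mutant-labelled vesicles 1 and 2 and 218 to 438 RPKM in wild-type ones. In mutant-labelled vesicle library 1 Lum was at 0 and Dcn at 0.550 RPKM, against 164 to 357 RPKM of Dcn in the other libraries, while Col1a2 was highest there (35.8 RPKM). The macrophage markers summed to 4801 and 3483 RPKM in mutant-labelled vesicles and 31.3 to 2574 RPKM in wild-type ones, with Adgre1, Mrc1 and Csf1r at 0 in at least 1 library. Neither target named by the texts separated the genotype labels in lung: Tbx4 stood at 20.9 and 36.8 RPKM against 26.1 to 30.1. Ghr stood at 9.83 and 12.9 RPKM against 11.8 to 13.3. In vesicles Ghr was below all wild-type libraries in both mutant-labelled ones, at 13.1 and 11.2 RPKM against 19.8 to 25.1 (log2 difference -0.83, limma unadjusted p = 0.228, adjusted p = 0.627). Of all vesicle genes tested, 9.94% separated the groups in that direction and 19.8% in either. Tbx4 was not listed in vesicles. The Y-linked gene Ddx3y was read at 20.6 and 19.9 RPKM in wild-type lungs 1 and 2 and at most 0.0369 RPKM in the other 4 lungs, and wild-type vesicles 1 and 2 held it too (24.4 and 10.9 RPKM), so the libraries with Y-linked RNA were all wild type. Mutant-labelled lung 1 stood apart, with the ciliated-cell gene Foxj1 at 103 RPKM against 33.0 to 64.6 in the other lungs and the endothelial gene Pecam1 at 91.9 RPKM against 106 to 130.

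In whole lung the clock genes varied between single lungs, and in none of the 10 did the genotype labels separate without overlap. Arntl, Npas2 and Clock were highest in wild-type lungs and lowest in mutant-labelled lung 1, while Per2, Per3, Dbp, Tef, Nr1d1 and Nr1d2 were highest in mutant-labelled lung 1 and lowest in wild-type lung 2. Per1 followed neither group. Levels are RPKM, reads scaled to exon kilobases and to M reads in genes, hence per length, on which Nr1d1 was the highest of the 10 genes (median 75.0 RPKM over the lungs) and Npas2 the lowest (median 1.92 RPKM). They rest on 337 to 11698 reads per gene and lung. Mouse coordinates below are those of GENCODE M1 on mm9.

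**Figure D1:**
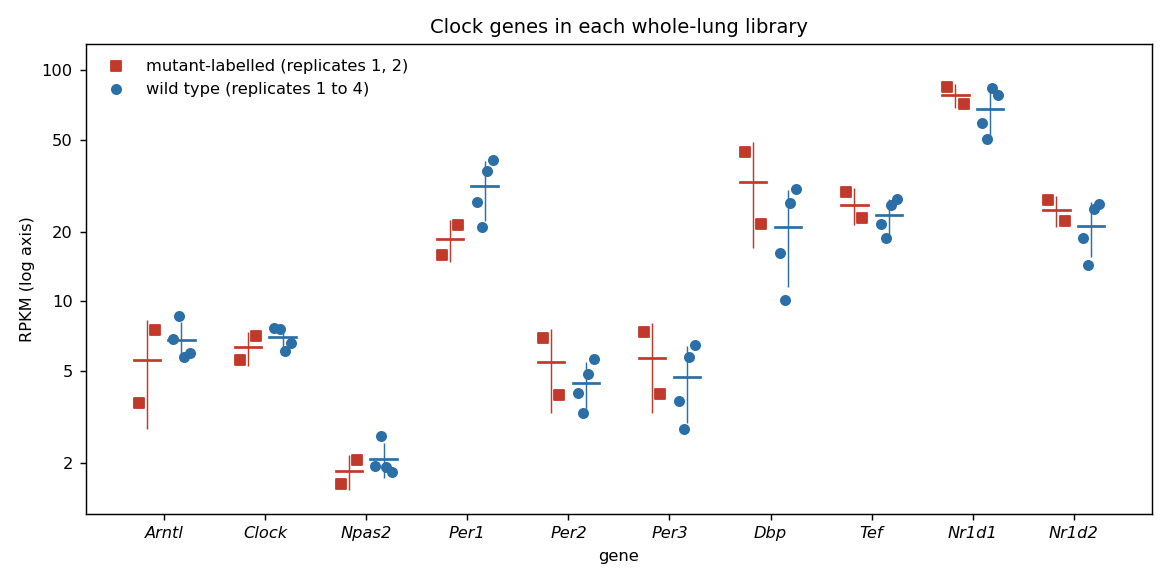
RPKM (log axis) of the 10 clock genes in each of 6 whole-lung libraries, with squares for mutant-labelled and circles for wild-type lungs in order of replicate number, a bar at the group mean and a line of 1 SD to each side. In each gene the groups overlap. Dbp spans 10.1 to 44.1 RPKM and Clock 5.57 to 7.68 RPKM.

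Of the activators, Arntl (ENSMUSG00000055116, chromosome 7, 120350979 to 120457636), the obligate partner in the activating pair, measured 3.61 and 7.48 RPKM in the mutant-labelled pair (lungs 1 and 2). The wild-type lungs 1 to 4 measured 6.88, 8.66, 5.74 and 5.97 RPKM. Mutant-labelled lung 1 was thus the lowest of the 6 and mutant-labelled lung 2 the second highest, so that the mutant-labelled pair spanned 2.07-fold and the wild-type lungs 1.51-fold. Npas2 (ENSMUSG00000026077, chromosome 1, 39250576 to 39420079) measured 1.61 and 2.06 RPKM in that pair and 1.94, 2.60, 1.91 and 1.83 RPKM in wild-type lungs. Again mutant-labelled lung 1 was lowest and wild-type lung 2 highest, the latter apart from the other wild-type lungs. Clock (ENSMUSG00000029238, chromosome 5, 76639992 to 76733817), at 5.57 and 7.07 RPKM against 7.68, 7.58, 6.06 and 6.57 RPKM, had the narrowest span of the 10 genes, 1.38-fold over the 6 lungs. Its order was close to that of Arntl, with mutant-labelled lung 1 lowest.

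The repressors of Arntl went the other way. Nr1d1 (ENSMUSG00000020889, chromosome 11, 98629246 to 98636647) measured 84.7 and 71.7 RPKM in the mutant-labelled pair and 59.1, 50.2, 83.6 and 78.4 RPKM in wild-type lungs. Nr1d2 (ENSMUSG00000021775, chromosome 14, 19036568 to 19071641) stood at 27.5 and 22.2 RPKM against 18.7, 14.3, 25.2 and 26.4 RPKM. In both genes wild-type lungs 1 and 2 were the lowest of all, and mutant-labelled lung 1 lay just above wild-type lungs 3 and 4. Exons of Nr1d1 overlap those of Thra, a thyroid hormone receptor gene on the opposite strand, and the strand setting of the counting is not given in the sources used here, so their shared reads cannot be told apart. Thra itself stood at 35.5 and 43.0 RPKM against 36.0 to 41.3, with no such order.

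Among the Per genes, which encode inhibitors of the activating pair, Per3 (ENSMUSG00000028957, chromosome 4, 150377761 to 150418774) measured 7.36 and 3.97 RPKM in the mutant-labelled pair and 3.71, 2.80, 5.75 and 6.46 RPKM in wild-type lungs. Per2 (ENSMUSG00000055866, chromosome 1, 93312561 to 93355907) stood at 6.96 and 3.92 RPKM against 4.01, 3.29, 4.82 and 5.61 RPKM. For both the mutant-labelled pair lay far apart, on either side of wild-type lungs 3 and 4. Per1 (ENSMUSG00000020893, chromosome 11, 68908719 to 68923462) measured 15.9 and 21.4 RPKM in the mutant-labelled pair and 26.9, 21.0, 36.7 and 41.0 RPKM in wild-type lungs. It was thus lowest in mutant-labelled lung 1, where Per2 and Per3 were highest, and in the wild-type lungs it had the same order as Per3. The ratio of Per1 to Per3 RPKM was 2.16 and 5.38 in the mutant-labelled pair, against 6.34 to 7.49 for wild type.

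Dbp and Tef encode activators of the PAR bZIP family, which carry the rhythm to other genes. Dbp (ENSMUSG00000059824, chromosome 7, 52960458 to 52965525) measured 44.1 and 21.7 RPKM in the mutant-labelled pair and 16.2, 10.1, 26.5 and 30.6 RPKM in wild-type lungs. Its span of 4.35-fold over the 6 lungs, and of 3.02-fold over the wild-type lungs alone, was the widest of the 10 genes. Tef (ENSMUSG00000022389, chromosome 15, 81632851 to 81657291) stood at 29.6 and 22.8 RPKM against 21.6, 18.8, 26.1 and 27.6 RPKM, a span of 1.57-fold in the same order as Dbp. Exons of Dbp overlap those of Sphk2, a sphingosine kinase gene on the opposite strand that stood at 22.9 and 16.3 RPKM against 14.7, 13.7, 17.7 and 17.7 RPKM, the same order of lungs as Dbp. Exons of Tef overlap the long noncoding Gm17597. How reads were split between these neighbours was not tested.

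Most of the 10 genes varied widely among the wild-type lungs alone, which is given here as a description. The SD of log2(RPKM + 1) over the 4 wild-type lungs was 0.68 for Dbp, above that of 99.4% of the 13701 genes tested, 0.45 for Per3 (98.3%), 0.42 for Per1 (97.9%) and 0.39 for Nr1d2 (97.3%). For 7 of the 10 genes it was above that of 90% of genes, and the median over the 10 was 0.31 against 0.08 over all genes. Clock (0.14) and Npas2 (0.16) varied least. Part of this spread went with the Y-linked RNA: wild-type lungs 1 and 2, which held it, lay above wild-type lungs 3 and 4 in 3 of the 10 genes (Arntl, Clock and Npas2) and below them in the other 7, where 49.2% of all genes tested separated these lungs in one direction or the other. Sex and any difference in how or when those lungs were taken cannot be told apart.

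The antiphase relation was measured over the 6 lungs as the correlation of log2(RPKM + 1) between Arntl or Npas2 and each of Per1, Per2, Per3, Dbp, Tef, Nr1d1 and Nr1d2, 14 pairs in all. Arntl and Npas2 ran opposite to Per2, Per3, Dbp, Tef, Nr1d1 and Nr1d2 in all 12 pairs, with Pearson's r from -0.96 to -0.78, and to Per1 in neither. After Benjamini-Hochberg adjustment over the 14 pairs, 10 passed a threshold of 0.05 by Pearson's r and 12 by Spearman's rho, in two-sided exact permutation tests over 720 pairings, whose smallest possible p is 0.00278. The pairs are not separate evidence: Per3, Dbp, Tef and Nr1d2 ranked the 6 lungs identically, and Arntl and Npas2 had rho = 0.94. The count thus largely repeats a single order of lungs. The genes were also chosen with earlier results of these same data known, so these p-values describe the relation and are no independent test of it. The permutation also takes the 6 lungs as exchangeable, though they mix genotype labels and lungs with and without Y-linked RNA. Against Arntl, Dbp had r = -0.91 (exact permutation p = 0.0153, adjusted p = 0.0238) and rho = -0.89 (p = 0.0333, adjusted p = 0.0389). Per2 had r = -0.96 with Arntl (exact permutation p = 0.00417, adjusted p = 0.0238) and rho = -0.94 (p = 0.0167, adjusted p = 0.0333). The pairs of Arntl with Nr1d1 (r = -0.78, exact permutation p = 0.0542, adjusted p = 0.0648) and Nr1d2 (r = -0.80, p = 0.0556, adjusted p = 0.0648) did not pass by Pearson's r, while by rho (-0.94 and -0.89, adjusted p = 0.0333 and 0.0389) they did.

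**Figure D2:**
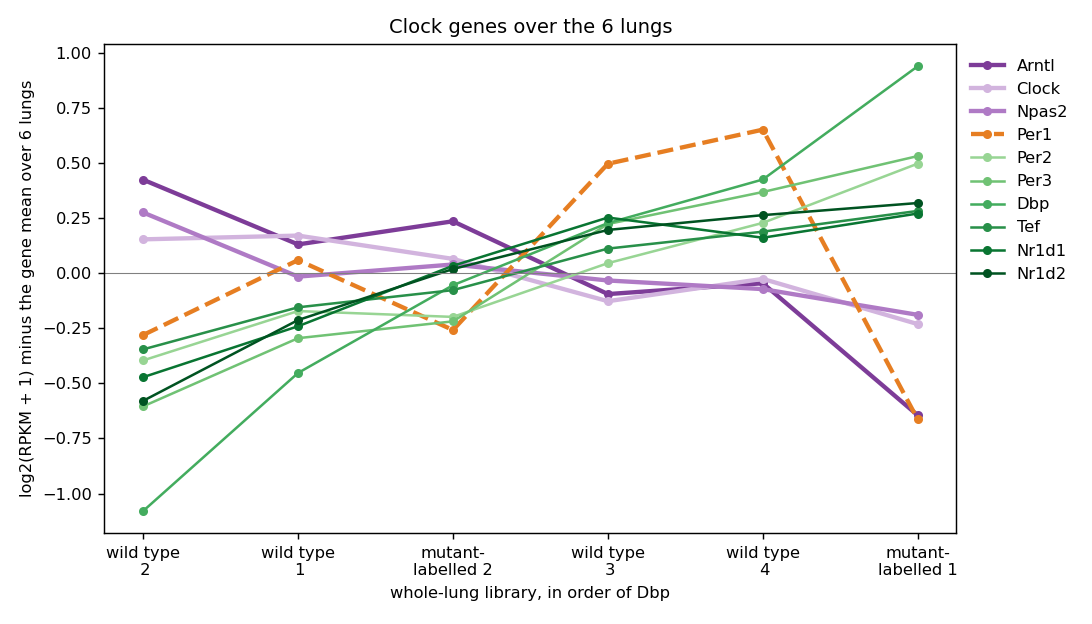
Log2(RPKM + 1) of each clock gene minus its mean over the 6 lungs (y axis), with the lungs ordered by Dbp (x axis). Per2, Per3, Dbp, Tef, Nr1d1 and Nr1d2 (greens) lie lowest in wild-type lung 2 and highest in mutant-labelled lung 1, Arntl, Npas2 and Clock (purples) lie lowest in mutant-labelled lung 1, and Per1 (dashed orange) peaks in wild-type lung 4 and is lowest in mutant-labelled lung 1.

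All 6 pairs of Npas2 other than that with Per1 passed by Pearson's r. With Npas2, Dbp had r = -0.93 (exact permutation p = 0.00833, adjusted p = 0.0238) and Per3 had r = -0.90 (p = 0.00278, adjusted p = 0.0238), while the rank order of Per2 was its exact reverse (rho = -1, p = 0.00278, adjusted p = 0.0333). Tef (r = -0.91, exact permutation p = 0.00556), Nr1d2 (r = -0.91, p = 0.0125), Per2 (r = -0.90, p = 0.0125) and Nr1d1 (r = -0.85, p = 0.0236) passed too, with adjusted p = 0.0238 for the first 3 and 0.0331 for Nr1d1. As a description, 0.277% of the 13701 genes tested had an r with Npas2 at or below that of Dbp. For Arntl with Dbp the share was 1.61%. The highest such share among the 12 pairs was 8.52%, for Arntl with Nr1d1, whose two-sided exact permutation p was 0.0542. The shares count only the negative direction. An r of that size with Arntl was thus not rare among all genes, which the permutation p does not take into account.

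Per1 was the exception in both rows. Its r was 0.19 with Arntl (exact permutation p = 0.750, adjusted p = 0.808) and -0.07 with Npas2 (p = 0.897, adjusted p = 0.897), and rho was -0.09 (adjusted p = 0.919) and -0.14 (adjusted p = 0.865). Without mutant-labelled lung 1 its r with Arntl was -0.93 over the other 5 lungs. Across the 4 wild-type lungs, Per1 moved opposite to Npas2 in 6 of 6 comparisons of lungs and opposite to Arntl in 5 of 6.

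**Figure D3:**
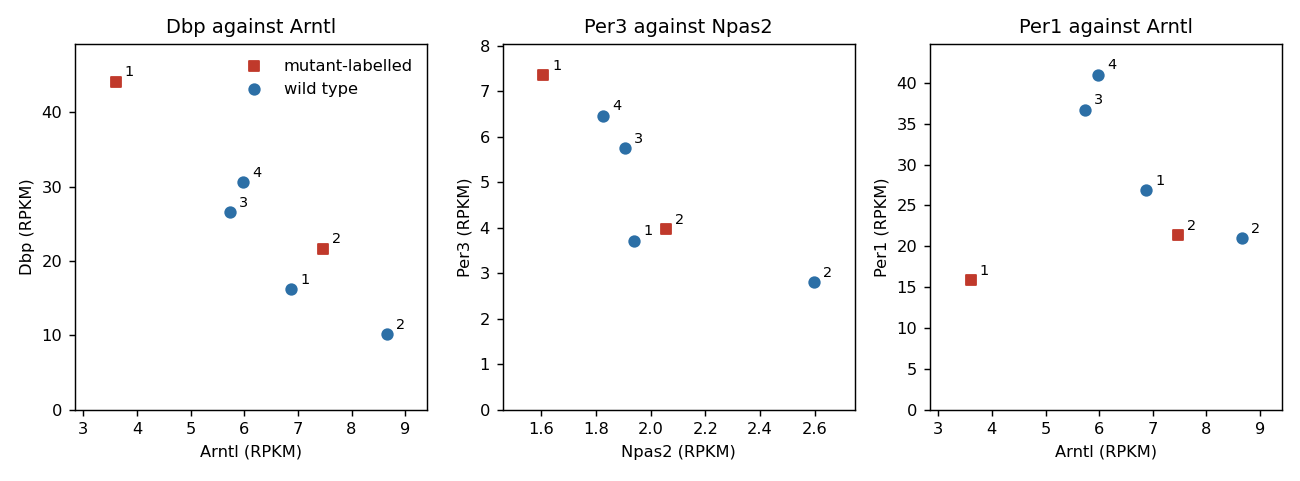
RPKM of Dbp against Arntl, of Per3 against Npas2 and of Per1 against Arntl in the 6 whole-lung libraries, with squares for mutant-labelled and circles for wild-type lungs, each with its replicate number. Dbp and Per3 fall as Arntl and Npas2 climb, and in the third panel mutant-labelled lung 1 (3.61 RPKM of Arntl, 15.9 RPKM of Per1) lies away from the descending run of the other 5 lungs.

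The 6 lungs did not fall into separate clusters by Dbp, which took values of 10.1, 16.2, 21.7, 26.5, 30.6 and 44.1 RPKM, but the relation leaned on its ends. Mutant-labelled lung 1 and wild-type lung 2 lay farthest from the median of Arntl and of Npas2. Without both, r over the remaining 4 lungs was -0.69 for Arntl with Dbp, -0.85 for Arntl with Per2 and -0.36 for Npas2 with Nr1d1, the smallest in size of the 12 pairs. Leaving out each lung in turn kept r between -0.9998 and -0.56 in the 12 pairs. The number of pairs that passed over 5 lungs was 0 on leaving out mutant-labelled lung 1 or any of wild-type lungs 2, 3 and 4, 6 on leaving out wild-type lung 1 and 8 on leaving out mutant-labelled lung 2. With 5 lungs the smallest possible exact permutation p is 0.0167. With the genotype means subtracted r was -0.95 to -0.74 in the 12 pairs, and with the means of lungs with and without Y-linked RNA subtracted -0.96 to -0.76, both given without a test. Within the 4 lungs that lacked Y-linked RNA, Npas2 and Dbp moved oppositely in 6 of 6 comparisons of lungs, and Arntl and Dbp in 5 of 6.

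Among themselves the genes of the rising side shared one order of lungs. Per3, Dbp, Tef and Nr1d2 ranked the 6 lungs identically, from mutant-labelled lung 1 through wild-type lungs 4 and 3, mutant-labelled lung 2 and wild-type lung 1 to wild-type lung 2. Over the 15 pairs among Per2, Per3, Dbp, Tef, Nr1d1 and Nr1d2, r ran from 0.84 (Per2 with Nr1d1) to nearly 1 (0.996, Per3 with Tef). Arntl had r = 0.89 with Npas2 and 0.90 with Clock. These are descriptions over the same 6 libraries. The ratio of Dbp to Arntl RPKM, which sets the sides against each other within a library, was 12.2 and 2.90 in the mutant-labelled pair. For wild-type lungs 1 to 4 it was 2.35, 1.17, 4.62 and 5.12, so that mutant-labelled lung 2 lay inside their range and mutant-labelled lung 1 above it.

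**Figure D4:**
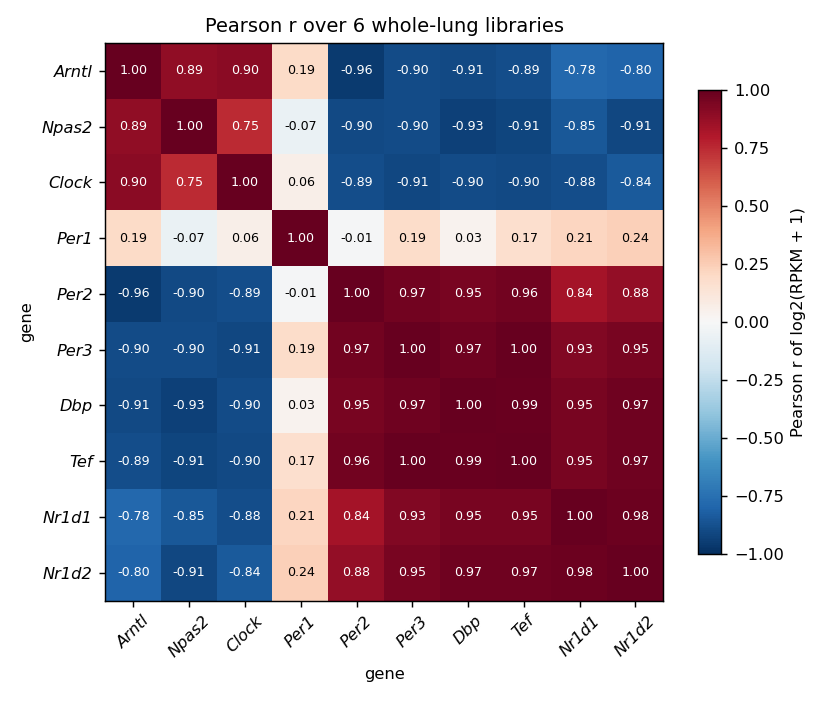
Pearson's r of log2(RPKM + 1) over the 6 whole-lung libraries between each pair of clock genes (colour scale from -1 to 1, with r printed in each cell). Arntl, Npas2 and Clock form a block of 0.75 to 0.90, Per2 to Nr1d2 a block of 0.84 to 0.996, the values between these blocks lie from -0.96 to -0.78, and the row of Per1 lies between -0.07 and 0.24.

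The genotype comparison asked whether the clock genes differed between mutant-labelled and wild-type lungs, and none of the 10 did at an adjusted p under 0.05. Over all 13701 genes tested with limma on log2(RPKM + 1), 0 genes passed (0% of genes) and 514 had an unadjusted p under 0.05. Of the clock genes 1 of 10 had an unadjusted p under 0.05, a lower one, against 3.75% of all genes in either direction and 1.21% lower, and in 0 of 10 did the groups separate without overlap, against 11.6% of all genes (7.5% with the mutant-labelled pair higher and 4.12% with it lower). The difference was above 0 in 6 genes and below 0 in 4, where 55.7% of all genes lay above 0. Its median was 0.19 on the log2 scale against 0.01 over all genes. Fold changes on this scale understate those of low genes.

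Per1 was the gene with an unadjusted p under 0.05. It averaged 18.6 ± 3.88 RPKM (SD, n = 2) in mutant-labelled and 31.4 ± 9.10 RPKM (SD, n = 4) in wild-type lungs, or -0.69 on the log2 scale (SE 0.28, 95% interval -1.36 to -0.03, limma unadjusted p = 0.0435, adjusted p = 0.994). Wild-type lung 2, at 21.0 RPKM, lay below mutant-labelled lung 2, at 21.4 RPKM. Among the 4 lungs without Y-linked RNA, the mutant-labelled pair (15.9 and 21.4 RPKM) lay below wild-type lungs 3 and 4 (36.7 and 41.0 RPKM), and the difference was -1.03 (limma unadjusted p = 0.00338, adjusted p = 0.9999). Over all lungs but mutant-labelled lung 1 it was -0.49 (limma unadjusted p = 0.222, adjusted p = 0.683). Over all but mutant-labelled lung 2 it was -0.90 (limma unadjusted p = 0.0496, adjusted p = 0.276). With limma's array weights it was -0.70 (limma unadjusted p = 0.148, adjusted p = 0.9999). Of 8 neutrophil markers, none at 0 in a lung, 7 were tested and 0 passed (smallest limma adjusted p = 0.364). At an unadjusted p under 0.05, 6 were higher in the mutant-labelled pair, against 2.54% of all genes. The sum of the 8 was 409 and 822 RPKM in that pair and 107 to 210 RPKM elsewhere, most of it from S100a9 (243 and 511 RPKM) and S100a8 (101 and 207 RPKM). Csf3r and Il1r2 overlapped between the groups. The part of neutrophil RNA in the Per1 values was not tested. In bulk tissue, fewer cells of a type and less RNA per cell cannot be told apart.

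For the remaining 9 genes the interval included 0. Dbp had the largest difference, at 32.9 ± 15.9 RPKM (SD, n = 2) against 20.9 ± 9.37 (SD, n = 4), or 0.66 on the log2 scale (SE 0.48, interval -0.49 to 1.81, limma adjusted p = 0.994). Leaving out mutant-labelled lung 2 gave 1.16, leaving out mutant-labelled lung 1 gave 0.17, and lungs without Y-linked RNA gave 0.12. Arntl averaged 5.54 ± 2.74 RPKM (SD, n = 2) against 6.81 ± 1.32 (SD, n = 4), a difference of -0.31 (SE 0.26, interval -0.94 to 0.32), which turned to 0.13 without mutant-labelled lung 1. The other 7 lay between -0.13 (Clock) and 0.25 (Nr1d2). Without mutant-labelled lung 1 the sign turned in 6 of the 10 genes (Arntl, Clock, Npas2, Per2, Per3 and Tef), for Npas2 only to 0.00080. Among lungs without Y-linked RNA, with mutant-labelled lung 1 kept, the sign turned for Per3 (-0.14), Tef (-0.047), Nr1d1 (-0.054) and Nr1d2 (-0.061). The direction of Per3 and Tef thus rested on the wild-type lungs with Y-linked RNA too.

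**Figure D5:**
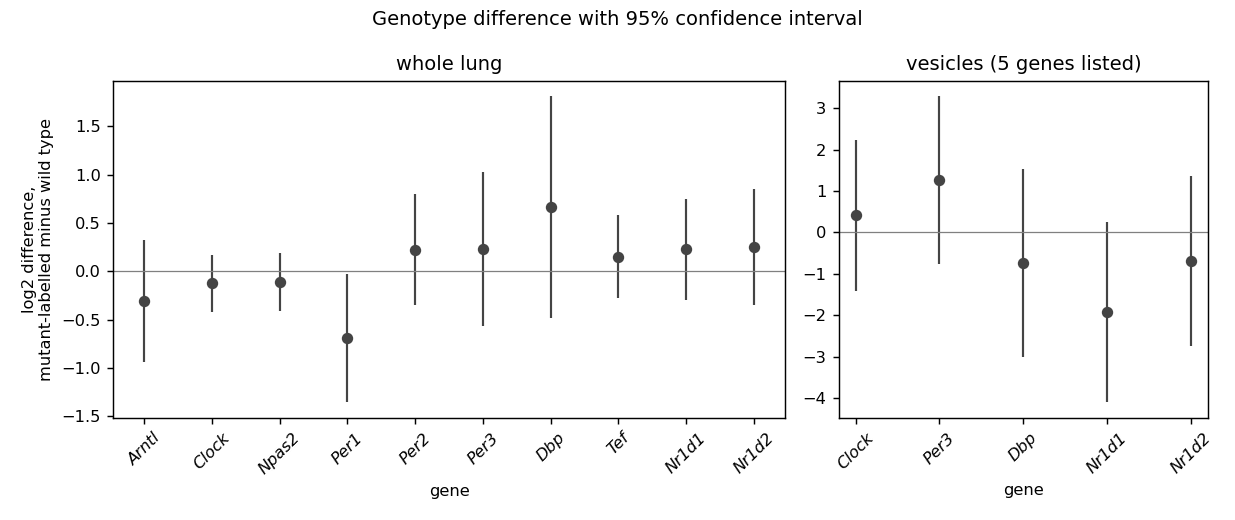
Log2 difference of RPKM + 1, mutant-labelled minus wild type (y axis), with limma's 95% confidence interval, for the 10 clock genes in whole lung and the 5 listed in vesicles. In lung the interval of Per1 (-1.36 to -0.03) alone excludes 0, and in vesicles the intervals of all 5 include it.

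Other genes of the clock loop were taken from a list of 18, of which 15 were tested in lung and 0 passed in either direction. Also 0 had an unadjusted p under 0.05, against 3.75% of all genes, 9 had a difference above 0, against 55.7% of all genes, and the median was 0.002. The smallest p belonged to Nfil3, a repressor that competes with DBP for D-box sequences, at 3.08 and 3.75 RPKM against 3.91, 4.30, 3.97 and 3.84 RPKM (log2 difference -0.18, limma unadjusted p = 0.0676). Both mutant-labelled lungs lay below all wild-type ones, as in 4.12% of all genes tested, and wild-type lung 2 was highest, as for Arntl. Timeless, which encodes a replication fork protein, came next at 2.77 and 3.32 RPKM against 2.38 to 2.77 (0.16, limma unadjusted p = 0.101). Hlf, the third PAR bZIP activator, stood at 4.60 and 3.55 RPKM against 3.07, 2.28, 3.34 and 3.90 RPKM, highest in mutant-labelled lung 1 and lowest in wild-type lung 2 like Dbp. Not all genes of the list shared that order. Ciart stood at 3.14 and 2.64 RPKM against 3.34, 2.45, 3.96 and 4.57 RPKM. Cry1 stood at 4.87 and 4.87 RPKM against 4.38, 5.06, 3.96 and 4.13 RPKM. With Arntl, r was -0.86 for Hlf, -0.39 for Ciart and 0.16 for Cry1. Hlf, Ciart and Cry1 were named after their values were seen.

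Of 10 genes known to follow the clock or glucocorticoid hormone in mouse organs, all were tested, 0 passed, 8 had a difference above 0 and 1 had an unadjusted p under 0.05. Over all genes tested, 55.7% had a difference above 0, 3.75% such a p in either direction and 1.21% a lower one. The gene of the list with such a p was Klf9, a glucocorticoid-induced repressor, at 46.3 and 53.8 RPKM against 67.7, 55.4, 67.6 and 73.4 RPKM (log2 difference -0.39, SE 0.13, limma unadjusted p = 0.0193, adjusted p = 0.994). As with Per1, mutant-labelled lung 1 was lowest and wild-type lung 4 highest. The median over these 10 genes was 0.06. Of 18 immediate early genes, which answer acute stimuli as Per1 also does, all were tested, 0 passed, and 7 had an unadjusted p under 0.05, all of them higher in mutant-labelled lungs (Fos, Junb, Egr1, Ier2, Dusp1, Btg2 and Klf2), where 2.54% of all genes were higher at that p and 1.21% lower. Egr1 stood at 35.7 and 15.2 RPKM against 8.90 to 13.7 RPKM, and Junb at 62.9 and 40.1 RPKM against 29.6 to 41.9 RPKM. Per1 had a log2 difference of -0.69. Per2 had one of 0.22, with its highest value, 6.96 RPKM, in mutant-labelled lung 1. Any part of acute stimuli in the values of the Per genes was not tested.

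The genes whose pattern over the 6 lungs was most like that of Arntl were sought among 662 tested genes that spanned at least 1 on the log2 scale, the 10 clock genes left out. Those with the highest r included Cd79b (0.99), Cd79a (0.98), Chst3 (0.98) and Spib (0.98), and Cd79a and Cd79b encode parts of the B cell receptor complex. Cd79b measured 18.1 and 40.2 RPKM in the mutant-labelled pair and 32.9, 44.0, 30.5 and 29.4 RPKM in wild-type lungs, lowest in mutant-labelled lung 1 and highest in wild-type lung 2. The 5 with the lowest r were Ccl11 (-0.92), Lrrc73 (-0.91), Wfdc13 (-0.90), Akr1b8 (-0.90) and Bhlhe41 (-0.89). Airway markers, 4 in number and none at 0, summed to 1072 RPKM in mutant-labelled lung 1 and 428 to 820 RPKM in the other 5. Scgb3a2, the largest part, was at 653 RPKM in mutant-labelled lung 1 and 664 RPKM in wild-type lung 4. Scgb3a1 (285 against 2.12 to 123 RPKM), Foxj1 (103 against 33.0 to 64.6 RPKM) and Tekt1 (31.6 against 12.8 to 20.9 RPKM) were highest in mutant-labelled lung 1. Of the opposite genes Bhlhe41 belongs to the clock loop, as a repressor at E-box sequences, and stood at 9.12 and 3.63 RPKM against 3.38, 3.41, 7.78 and 5.16 RPKM. Of the endothelial markers, Pecam1 had an r of 0.93 with Arntl and Cdh5 an r of 0.75. The part of cell makeup in the values of Arntl was not tested.

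In vesicles the 5 listed clock genes were read from 0 to 463 reads per library. Clock stood at 16.0 and 5.22 RPKM in mutant-labelled vesicles 1 and 2 and at 6.60, 5.46, 5.80 and 9.69 RPKM in wild-type vesicles 1 to 4. It was the only one of the 5 at 5 RPKM or more in all 6 libraries, and mutant-labelled vesicle library 1 was highest. Nr1d1 stood at 0 and 0.775 RPKM (0 and 4 reads, where 0 reads allow up to 0.559 RPKM by counting error alone) against 6.09, 9.34, 1.08 and 3.25 RPKM on 14 to 134 reads. Both mutant-labelled libraries lay below all wild-type ones, as in 1 of the 5 genes, where 19.8% of all vesicle genes tested separated the groups, 9.94% with mutant-labelled lower and 9.88% with it higher. The part of the macrophage RNA and of the lower depth of these 2 libraries was not tested. Nr1d1 averaged 0.388 RPKM in mutant-labelled and 4.94 RPKM in wild-type vesicles. It was thus listed only through its wild-type level, which by itself favours a gap in that direction. Its separation, difference and p-value are descriptions of a gene so listed. The log2 difference was -1.92 (SE 1.01, interval -4.10 to 0.26, limma unadjusted p = 0.0794, adjusted p = 0.516), and -3.72 with a pseudocount of 0.1 (limma unadjusted p = 0.0464, adjusted p = 0.467).

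The other 3 did not separate the groups. Nr1d2 stood at 1.60 and 2.27 RPKM against 5.54, 1.93, 5.90 and 2.70 RPKM (log2 difference -0.69, SE 0.95). Dbp stood at 1.36 and 1.22 RPKM against 2.65, 2.26, 0.485 and 11.1 RPKM (-0.74, SE 1.05), where 1 wild-type library held 177 reads and the others 6 to 35. Without that library, wild-type vesicle library 4, the difference of Dbp was -0.19. Per3 stood at 4.12 and 1.30 RPKM against 0, 0.0447, 2.88 and 0.0385 RPKM (1.26, SE 0.94), so that 3 wild-type libraries held 0 to 2 reads and the fourth 116. That difference was 3.13 with a pseudocount of 0.1 and 0.69 without mutant-labelled vesicle library 1. Of the 5 genes 0 had an unadjusted p under 0.05, against 10.3% of the 7615 vesicle genes tested (5.23% higher and 5.03% lower), of which 0 passed by limma (0%). Their median difference was -0.69, against -0.14 over all genes. Like Nr1d1, Dbp and Nr1d2 averaged over 2 RPKM in wild-type vesicles only, and Per3 in mutant-labelled ones only. Their listing thus rested on the higher group, while Clock averaged over 2 RPKM in both. A 95% interval for Clock of -1.41 to 2.23 shows how little these libraries bound. Without mutant-labelled vesicle library 1 the difference of Clock turned from 0.41 to -0.31.

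Because lung and vesicles were normalized in separate tables, levels were set side by side only as percentiles within a library over the 8096 genes listed in both. These are the genes listed in vesicles, each averaging over 2 RPKM in a vesicle group, so lung percentiles are among genes so chosen. Genes at 0 in a library share a tied percentile, as Nr1d1 did in mutant-labelled vesicle library 1 (11.1). In vesicles Clock lay at the 46.7th to 73.1st percentile, above its 26.8th to 37.1st in lung. Nr1d1 lay at the 11.1th and 18.9th percentile in mutant-labelled and the 22.9th to 65.3rd in wild-type vesicles, while in lung it lay at the 89.3rd to 94.7th percentile. Dbp lay at the 16.3rd to 67.8th percentile in vesicles and the 46.8th to 87.9th in lung. With 5 of the 10 genes not listed, Arntl and Npas2 among them, the phase relation could not be measured in vesicles. Of the 18 other clock genes 8 were listed in vesicles and 7 tested, with 0 passing and 0 at an unadjusted p under 0.05, and the smallest p belonged to Bhlhe40, an E-box repressor, at 7.65 and 0.346 RPKM against 9.88 to 22.3 RPKM (-1.98, limma unadjusted p = 0.0551). Of the 5 output genes tested in vesicles 1 had an unadjusted p under 0.05, against 10.3% of all vesicle genes (5.23% higher and 5.03% lower). It was Sgk1, a kinase gene induced by glucocorticoids, at 57.1 and 6.23 RPKM against 0.264 to 3.81 RPKM (2.84, limma unadjusted p = 0.0213, adjusted p = 0.482). Of 9 immediate early genes tested there 1 did, near the same share, namely Zfp36, which encodes an mRNA decay factor, at 1.28 and 6.32 RPKM against 6.09 to 57.7 RPKM (-2.12, limma unadjusted p = 0.0463, adjusted p = 0.485).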

How the data were processed

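RNA of 6 whole-lung and 6 vesicle libraries was sequenced. Alignment and counting used TopHat2 and HTSeq on mm9, per the submitters' processing notes, and the sources used here give no version, strand setting or annotation. For each source 1 table was deposited by the authors with 0 columns of no sample. No header names a unit, and the deposited values were read as RPKM, because values times exon length fell on whole multiples of 1 step per column for 44.7% to 50.9% of values above 0 (tolerance 0.02). Depth came from that step, and reads of a clock gene from an exon length that gave whole reads. Gene symbols turned to dates, 27 in lung and 15 in vesicles, were restored by identifier.

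Groups were compared within a table by limma-trend (limma 3.58.1, R 4.3.3) on log2(RPKM + 1), over genes at 1 RPKM or more in at least 2 libraries, with Benjamini-Hochberg adjustment over all of them. Correlations used exact permutation (numpy 2.4.6). Scripts were tested on simulated data. The members and the lists were chosen with earlier results of these data known. Named genes are the 10, those with an unadjusted p under 0.05 or else the 2 smallest p of each list of clock, output and immediate early genes, and the 5 most like and 5 most unlike Arntl. The text names part of the vesicle ones. One gene that the rule names is not reported here. Intervals are limma's and rest on the spread between libraries, while floors (3 reads) cover counting error only.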

Additional observations from a re-analysis of the deposited data

Results flagged for a closer look

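Of 15 sets of 4 wild-type libraries tested for a library far from the others (10 genes in lung, 5 in vesicles), 2 exceeded Dixon's 95% critical value, and chance gives about 1 in 20. Npas2 in wild-type lungs did so with a ratio of gap to range of 0.853, through wild-type lung 2 at 2.60 RPKM beside 1.94, 1.91 and 1.83 RPKM. Per3 in wild-type vesicles did so with a ratio of 0.985 (0.9845), through wild-type vesicle library 3 at 2.88 RPKM on 116 reads beside 0, 0.0447 and 0.0385 RPKM.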

How the results depend on the processing

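No clock gene passed at an adjusted p under 0.05 in any alternative run (smallest adjusted p 0.212 in lung and 0.278 in vesicles). Alternatives were a pseudocount of 0.1, no filter, a filter of 5 RPKM, median-ratio scaling, array weights, a replicate block, leaving out each library, and the libraries without Y-linked RNA. Of 129 alternative lung differences 119 kept their sign. Without mutant-labelled lung 1 the sign turned for Arntl (0.13), Clock (0.022), Npas2 (0.00080), Per2 (-0.12), Per3 (-0.14) and Tef (-0.027), against lows and highs over all left-out libraries of -0.75 and 0.13, -0.27 and 0.022, -0.23 and 0.00080, -0.12 and 0.57, -0.14 and 0.61, and -0.027 and 0.33. Among lungs without Y-linked RNA it turned for Per3 (-0.14), Tef (-0.047), Nr1d1 (-0.054) and Nr1d2 (-0.061). In vesicles 62 of 63 kept their sign, and over left-out libraries Clock ran from -0.31 to 1.13, Per3 from 0.69 to 1.84, Dbp from -1.20 to -0.19, Nr1d1 from -2.35 to -1.51 and Nr1d2 from -0.92 to -0.50. Lung clock genes at an unadjusted p under 0.05 numbered 1 in the main test, 0 without a filter or with array weights, 5 with the replicate block, where 2.93% of all genes had such a p (Per3 0.61, Dbp 1.21, Tef 0.35, Nr1d1 0.51 and Nr1d2 0.56, all at an adjusted p of 0.9999 by limma, while Per1 was -0.35 at an unadjusted p of 0.215), and 0 to 2 over left-out libraries, with 2 without mutant-labelled lung 2, where 18.1% of all genes had such a p, and in vesicles 0 became 1 with a pseudocount of 0.1 (Nr1d1). The replicate block sets the mutant-labelled pair against wild-type libraries 1 and 2 only, because the other replicate numbers occur in wild type alone. Those wild-type libraries were the ones with Y-linked RNA. The block thus compares libraries without Y-linked RNA with libraries that hold it. Whether replicate numbers pair libraries could not be settled. Deviations of same-numbered lungs correlated at -0.48 and 0.05, but the deviations of 2 mutant-labelled lungs mirror each other exactly, so these values cannot decide it. With the replicate block 0 genes passed in either table. Without a filter 1 lung gene passed, and without mutant-labelled vesicle library 2, which leaves the other to vary like wild type, 377 vesicle genes did (0 to 377 over left-out libraries, 0 in lung). Antiphase pairs that passed numbered 10, with 0 to 8 over left-out lungs, and 5 lungs allow no p under 0.0167. For Arntl with Per1 r was 0.19 but rho -0.086, with r -0.93 to 0.44 over left-out lungs, -0.96 without the 2 farthest lungs and -0.18 with genotype means subtracted. For Npas2 with Per1 it was -0.75 to 0.36 over left-out lungs and 0.057 with the means by Y-linked RNA subtracted. Subtraction of means was added after the data were seen. The cause of these changes was not tested. Vesicle depth (1.68 to 5.41 M reads, megareads) limits every vesicle value.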
